A study of Rattus norvegicus with 167 samples.

Results

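The 6 genes described here make, package and retrieve the inhibitory transmitters GABA and glycine and set the chloride gradient on which those transmitters act: Gad1, Gad2, Slc32a1, Slc6a5, Slc12a5 and Slc12a2. They were chosen by name, and each was read from the probe set that carries its symbol alone and has the highest mean over all arrays. All 6 were found among the 14218 genes with such a probe set. Gad1, Slc32a1, Slc12a5 and Slc12a2 were among the 12041 genes that exceeded their array's 40th percentile on at least 3 arrays and were tested. Gad2 and Slc6a5 lay below that percentile on all 167 arrays and were described by level.

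The series measured spinal cord RNA of adult female Wistar rats on Affymetrix arrays after the mid-thoracic cord had been cut through and a short length of it removed. In NT3 rats a tube of chitosan carrying neurotrophin-3, a growth factor for neurons, was placed in the gap, and in ET rats an empty tube of that kind. In lesion control (LC) rats the gap received nothing, and uninjured rats had no operation. NT3, ET and LC rats all carried the same transection and removal. Segments of 5 mm were taken at the lesion site, immediately rostral to it and immediately caudal to it at days 1, 3, 10, 20, 30, 60 and 90. The lesion site was sampled from day 3, and in ET rats on day 3 only. Rostral segments gave 21 NT3, 20 ET and 21 LC arrays, lesion segments 18 NT3, 3 ET and 18 LC arrays, caudal segments 21 arrays of each, and uninjured cord 3 arrays. Every group held 3 arrays except rostral ET on day 10, which held 2. The labels do not say whether arrays of a group are separate animals, nor whether the 3 segments of a day come from the same animals, so p-values measure the spread between arrays, which may in part be technical. Because cord was removed at the lesion site, the tissue sampled there is what came to occupy the gap, with or without a tube.

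As background, GABA is made from glutamate by the glutamic acid decarboxylases GAD67, encoded by Gad1, and GAD65, encoded by Gad2. Slc32a1 encodes VGAT, which loads both GABA and glycine into synaptic vesicles, and Slc6a5 encodes GlyT2, which returns glycine to the terminals of glycinergic neurons. The receptors for both transmitters are chloride channels, so the effect of opening them depends on the chloride gradient. Slc12a5 encodes the neuronal potassium-chloride cotransporter KCC2, which moves chloride out of mature neurons. Slc12a2 encodes the sodium-potassium-chloride cotransporter NKCC1, which moves chloride in and is also made by glia, vessels and epithelia. In the spinal cord these proteins serve the interneurons that restrain motor and sensory circuits, and loss of KCC2 from motor neurons below an injury has been linked to spasticity in rats.

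The promoter windows of the 4 tested genes are shown because 3 of these genes moved together across the groups and the other, Slc12a2, much less so. Each window is RefSeq sequence of the rat GRCr8 build, from 250 bases before to 50 bases after the start used in the RefSeq table of promoters, read 5′ to 3′ on the + strand of the gene. All 6 genes matched this table. Capitals mark TATAAA, the core of a TATA box, and GGGCGG, the core of a GC box, on either strand.
Gad1, chr3:75777202-75777501: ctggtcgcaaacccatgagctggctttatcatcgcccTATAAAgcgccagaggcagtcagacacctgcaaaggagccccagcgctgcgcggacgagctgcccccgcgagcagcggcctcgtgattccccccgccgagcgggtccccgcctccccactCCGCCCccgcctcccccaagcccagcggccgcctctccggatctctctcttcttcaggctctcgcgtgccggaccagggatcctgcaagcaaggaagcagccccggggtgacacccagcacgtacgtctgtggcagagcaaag
Slc32a1, chr3:167686995-167687294: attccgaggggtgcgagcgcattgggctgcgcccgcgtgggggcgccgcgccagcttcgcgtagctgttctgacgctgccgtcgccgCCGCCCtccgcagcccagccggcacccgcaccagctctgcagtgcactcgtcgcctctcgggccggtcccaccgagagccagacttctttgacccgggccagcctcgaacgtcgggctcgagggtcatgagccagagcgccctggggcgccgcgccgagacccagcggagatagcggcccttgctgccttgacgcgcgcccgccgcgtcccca
Slc12a5, chr3:174115583-174115882: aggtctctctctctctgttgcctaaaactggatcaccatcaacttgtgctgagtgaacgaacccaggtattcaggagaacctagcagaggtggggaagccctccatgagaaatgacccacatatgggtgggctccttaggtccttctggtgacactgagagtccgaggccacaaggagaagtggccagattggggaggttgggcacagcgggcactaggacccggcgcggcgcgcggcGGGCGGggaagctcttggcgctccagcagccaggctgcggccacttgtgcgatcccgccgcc
Slc12a2, chr18:53546083-53546382: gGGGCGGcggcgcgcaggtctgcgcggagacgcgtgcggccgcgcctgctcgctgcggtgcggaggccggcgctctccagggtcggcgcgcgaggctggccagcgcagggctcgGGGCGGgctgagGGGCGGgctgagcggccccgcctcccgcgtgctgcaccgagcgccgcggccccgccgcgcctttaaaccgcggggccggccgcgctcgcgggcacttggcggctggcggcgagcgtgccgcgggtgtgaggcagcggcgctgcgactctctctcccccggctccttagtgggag

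All of the 4 windows held GGGCGG, once in Gad1, Slc32a1 and Slc12a5 and 3 times in Slc12a2, against 33.06% of 33469 rat promoter windows of the same length with at least 1 copy. Gad1 alone of the 4 held TATAAA, at position −213 from the start, and 14.22% of all windows held it. The GC content was 67.7% for Gad1, 73.7% for Slc32a1, 61.3% for Slc12a5 and 80.7% for Slc12a2, against a median of 51.7% over all windows. The Slc12a2 window had 52 CG dinucleotides and the Slc12a5 window 16, with a median of 7 over all windows. The windows of Gad2 and Slc6a5 held neither motif and had GC contents of 63.7% and 54.3%. These matches describe letters in a window only. For Gad1, Slc12a2 and Slc6a5 the start behind the window lies inside the gene interval given next, so that start is not the first base of the gene. The whole Slc6a5 window, chr1:108781303-108781602, lies within its gene interval. 3 of the tested genes lie on chromosome 3, Gad1 at chr3:75777260-75818099, Slc32a1 at chr3:167687245-167691714 and Slc12a5 at chr3:174115833-174155112. Slc12a2 lies at chr18:53546263-53614478, Gad2 at chr17:89671718-89734246 and Slc6a5 at chr1:108767245-108833173.

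Values are log2 RMA intensities, so that a difference of 1 is a change by a factor of 2, and levels of different genes are not comparable because each probe set has its own brightness. Array medians lay between 7.10 and 7.25 and the 40th percentiles between 6.49 and 6.60. A few features of the series touch the results below. RT1-CE10, a class I histocompatibility gene whose probe set can differ between rats, was low in uninjured cord (6.49 to 6.68) and in some groups and high in others on the same day, and its values are given beside the results they touch. The difference between the 3′ and 5′ beta-actin probe sets, a measure of RNA quality, averaged 1.72 ± 0.51 in uninjured cord (SD, n = 3), above the means of 0.82 to 1.35 in the injured groups. By earlier results of these data 3 arrays stood apart, replicate 1 of NT3 lesion tissue on day 3, replicate 5 of LC lesion tissue on day 20 and uninjured replicate 2, and results were also computed without them.

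The uninjured cord gave 11.19, 11.06 and 11.11 for Gad1, 9.83, 10.29 and 10.04 for Slc32a1, 12.32, 12.62 and 12.23 for Slc12a5, and 13.18, 13.10 and 13.04 for Slc12a2. Gad2 read 5.74, 5.33 and 5.06 there and Slc6a5 5.04, 4.81 and 4.92, below the 40th percentile. These low readings in tissue known to use both genes limit what their probe sets can show. The Gad2 probe set ran from 4.29 to 5.84 and the Slc6a5 probe set from 4.46 to 5.41 over all arrays. A second Gad1 probe set had a mean of 5.29 and lay below the 40th percentile on all 167 arrays, and Gad1 here means the brighter one.

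**Figure D1:**
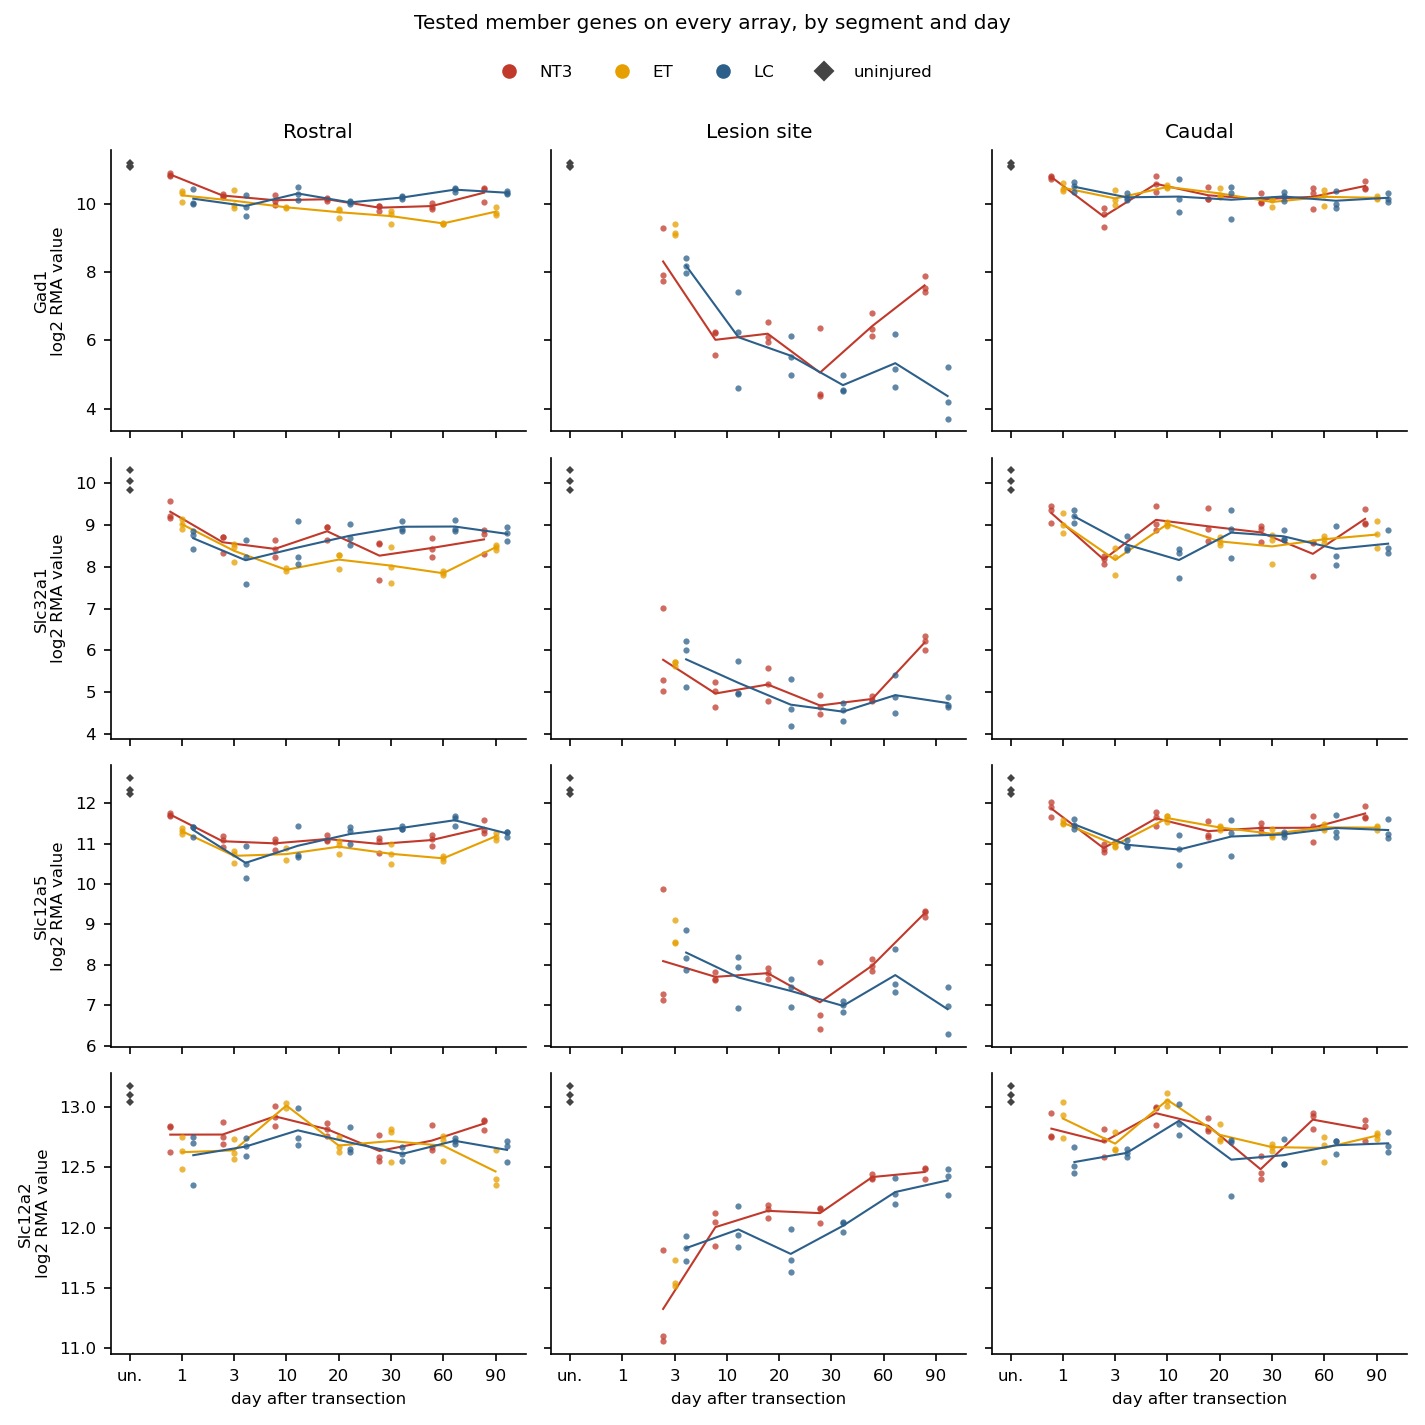
Log2 RMA value of each array (points) and group means (lines) for Gad1, Slc32a1, Slc12a5 and Slc12a2 in rostral, lesion and caudal segments, against day, with NT3, ET, LC and uninjured arrays in separate colours and a vertical scale of its own for each gene. Gad1 reached 3.71 in LC lesion tissue, against 11.06 to 11.19 in uninjured cord, and Slc12a2 did not fall below 11.06 on any array.

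The comparison of LC with uninjured cord sets operated rats, with transection and removal of cord, against rats without operation at each distance and time. It cannot separate the transection from the rest of the operation. All 4 tested genes were lower in LC than in uninjured cord in each segment and period, 36 of 36 comparisons, and in none of the 36 did an LC array reach the lowest uninjured array. How many of all tested genes showed such a gap was not counted. The same uninjured arrays stood in every comparison, so the 36 are not independent of each other. All 4 tested genes fell most at the lesion site, where Gad1 differed by −6.26 on the log2 scale at days 60 and 90, and Slc12a2 fell least in every segment and period. In the same fits, 67.7%, 60.5% and 53.6% of all tested genes were called in rostral cord at days 1 and 3, days 10 to 30 and days 60 and 90, 74.3%, 79% and 75.4% at the lesion site and 65%, 61.7% and 56.6% in caudal cord. Those called lower made up 31.8%, 31.3% and 28.7% of all tested genes in rostral cord, 33.5%, 37.1% and 35% at the lesion site and 30.7%, 32.5% and 31.5% in caudal cord. In bulk tissue, fewer cells of a type and less RNA per cell cannot be told apart.

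Gad1, the main GABA-synthesising enzyme of cell bodies, gave 8.41, 8.17 and 7.97 in LC lesion tissue on day 3, against 11.19, 11.06 and 11.11 in uninjured cord. Its difference was −2.94 on the log2 scale (95% interval −3.97 to −1.90, adjusted p = 5.0e-06, limma with Benjamini-Hochberg adjustment over all tested genes, as for every adjusted p below). At days 60 and 90 its LC lesion arrays ran from 3.71 to 6.20 with a median of 4.90, and the difference was −6.26 (−7.16 to −5.37). All 6 of those late arrays lay below the 40th percentile of their array, so they mark a level near background and no fold is given. In rostral cord Gad1 fell by 1.08 at days 1 and 3 (−1.29 to −0.87, 2.12-fold lower), by 0.95 at days 10 to 30 and by 0.76 at days 60 and 90. In caudal cord it fell by 0.78, 0.94 and 0.99 over the same 3 periods. When both Gad1 probe sets were averaged, its differences were −0.20 in late rostral cord and −0.34, −0.30 and −0.31 in caudal cord, and these 4 did not pass.

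Slc32a1, the vesicular transporter, read 6.22, 5.13 and 6.01 in LC lesion tissue on day 3, 4.19 to 5.74 (median 4.74) at days 10 to 30 and 4.50 to 5.41 (median 4.79) at days 60 and 90, against 9.83, 10.29 and 10.04 in uninjured cord. The differences were −4.27, −5.23 and −5.21. Across all treatments 38 of the 39 lesion arrays were below their array's 40th percentile for this gene, so the lesion site offered little range for a further fall. Outside the lesion the rostral LC arrays ran from 7.58 to 8.86 (median 8.53) at days 1 and 3 and the caudal LC arrays from 8.05 to 8.97 (median 8.38) at days 60 and 90. The rostral gap was widest at days 1 and 3 (−1.64, −2.02 to −1.25, 3.11-fold lower), followed by −1.34 and −1.18. The caudal gap ran the other way, at −1.19, −1.49 and −1.57.

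Slc12a5, the chloride extruder KCC2, read 8.86, 7.87 and 8.18 in LC lesion tissue on day 3 and 6.30 to 8.40 (median 7.38) at days 60 and 90, against 12.32, 12.62 and 12.23 in uninjured cord. It was 17-fold lower on day 3, 33.1-fold lower at days 10 to 30 and 33.5-fold lower at days 60 and 90. In rostral LC cord its arrays ran from 10.14 to 11.42 (median 11.05) at days 1 and 3 and from 11.17 to 11.67 (median 11.36) at days 60 and 90, and the difference from uninjured cord was −0.98 in the late period (1.97-fold lower). In caudal LC cord the difference was −1.17 at days 1 and 3 and −1.03 at days 60 and 90. KCC2 transcript was thus lower on both sides of the cut through day 90.

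Slc12a2, the chloride importer NKCC1, read 11.93, 11.83 and 11.73 in LC lesion tissue on day 3 and 12.19 to 12.48 (median 12.35) at days 60 and 90, against 13.18, 13.10 and 13.04 in uninjured cord. Its difference was −1.28 on day 3 (−1.53 to −1.02, 2.42-fold lower) and −0.76 at days 60 and 90 (−0.98 to −0.54, 1.70-fold lower, adjusted p = 1.8e-07). In rostral cord it fell by 0.47, 0.40 and 0.42 and in caudal cord by 0.52, 0.42 and 0.41. Outside the lesion its loss changed little between periods, and at the lesion site it was far smaller than that of the other 3 genes.

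**Figure D2:**
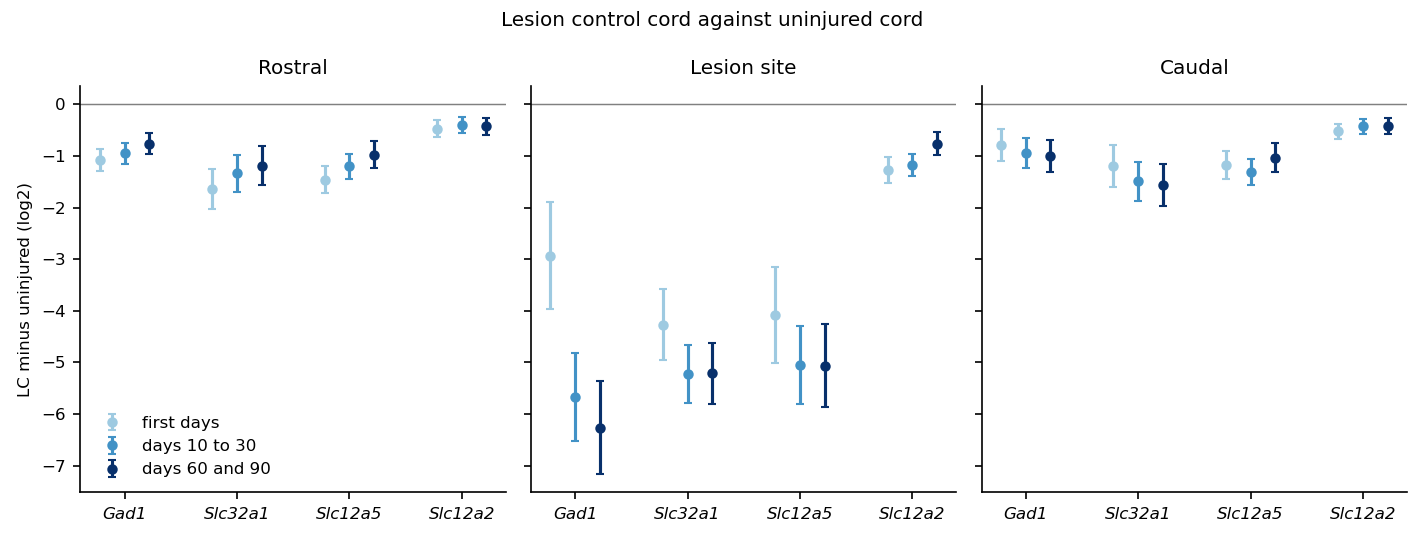
LC minus uninjured, on the log2 scale, with 95% intervals, for 4 genes in 3 segments and 3 periods (days 1 and 3, days 10 to 30, days 60 and 90; the lesion site starts at day 3). All 36 intervals lie below 0, and the lesion values of Gad1 run from −2.94 to −6.26 while those of Slc12a2 stay between −1.28 and −0.76.

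Genes around the members in the same pathways were counted from lists, with the medians of all tested genes between −0.04 and 0.08 in these 9 comparisons. Of 13 GABA-A receptor subunits 6 were tested, and 6, 5 and 6 of these were lower at the lesion site in the 3 periods (list medians −2.95, −3.49 and −2.96). Gabra5 and Gabrb2, subunits of the receptor channel, were lower in all 9 comparisons and reached −4.96 and −4.88 at the lesion site at days 60 and 90. Gabrg1 differed by segment: it was higher in late rostral (0.93) and late caudal (1.20) LC cord and lower at the lesion site (−1.78). All 4 tested genes of the 7 on the glycine receptor list were lower at the lesion site in every period, with Glra2, an alpha subunit, at −4.48, Glrb, the beta subunit, at −2.18 and Gphn, the scaffold gephyrin, at −1.36 in the late period.

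The enzymes that break GABA down, Abat (GABA transaminase) and Aldh5a1 (succinic semialdehyde dehydrogenase), were lower in all 9 comparisons and reached −2.06 and −2.76 at the late lesion site. Slc6a13, the GABA transporter GAT2 of meninges and vessels, was higher in all 9 and reached 3.44 there. Slc6a9, the glycine transporter GlyT1, which is largely glial, was lower in all 9, at −3.29 in late lesion tissue. Of 7 other cation-chloride cotransporters 3 were tested: Slc12a7 (KCC4) and Slc12a4 (KCC1), which are not restricted to neurons, were higher in all 9 comparisons, Slc12a7 by 3.54 at the late lesion site and by 1.75 and 1.48 in late rostral and caudal cord. Slc12a9 passed the test in none of the 9. Of 10 genes for kinases and other regulators of the cotransporters 8 were tested, among which Stk39 (SPAK), Oxsr1 (OSR1) and Wnk2 were lower in all 9, at −1.05, −0.90 and −2.23 in late lesion tissue, and Prkcd, a protein kinase C, was higher in all 9, at 1.68 there.

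Marker lists of cell types moved with these results. All 11 tested neuron genes were lower in all 9 comparisons, with list medians of −0.99, −0.83 and −0.66 in rostral cord, −2.79, −4.30 and −3.63 at the lesion site and −0.76, −0.80 and −0.74 in caudal cord. Of 10 inhibitory interneuron genes, 8 were lower at the late lesion site, with the calcium-binding protein genes Pvalb and Calb2 at −4.66 and −4.27 and the peptide gene Sst at −4.05, while Pnoc was higher by 1.38. Slc17a6, the vesicular glutamate transporter of excitatory neurons, stood at −4.60 there, so the loss was not limited to inhibitory markers. Microglia genes were higher, 7 of 7 in all 9 comparisons. RT1-CE10 was 7.12 to 12.4 in LC arrays, against 6.49 to 6.68 in uninjured cord, and above 10 in all LC arrays of days 1, 30 and 90. The part of cell numbers and of RT1-CE10 in the members' values was not tested.

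The lesion site was then set against the neighbouring segments within LC. All 4 genes were lower at the lesion in all 3 periods, 12 of 12 comparisons with no overlap of arrays, beside 62.2%, 81.6% and 77% of all tested genes called and 30.1%, 36.2% and 33.8% called lower. The share of all tested genes without overlap was not counted here either. Gad1 was lower than in the neighbouring segments by 1.87 on the log2 scale in the first period, 4.72 at days 10 to 30 and 5.39 at days 60 and 90, where Slc12a2 was lower by 0.34 (adjusted p = 3.4e-07). Slc32a1 and Slc12a5 were lower by 3.84 and 4.06 in the late period. Between rostral and caudal LC cord none of 12 comparisons passed the test, where 0.731%, 0.0498% and 1.21% of all tested genes did. The widest difference was that of Slc32a1, −0.45 at days 1 and 3 (−0.82 to −0.07, adjusted p = 0.22) and 0.38 at days 60 and 90 (adjusted p = 0.31). These intervals leave room for modest differences between the sides.

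Late and first days of LC rats were compared within each segment, and the changes were not tested between segments. In rostral cord Gad1 was higher at days 60 and 90 than at days 1 and 3 by 0.33 (adjusted p = 0.0011), Slc32a1 by 0.45 (0.012 adjusted) and Slc12a5 by 0.49 (0.00012 adjusted), while Slc12a2 differed by 0.05 and did not pass, with 58.2% of all tested genes called and 25.6% called higher. At the lesion site the same 3 genes were lower late than on day 3, Gad1 by 3.33 (adjusted p = 1.4e-07), Slc12a5 by 0.98 (0.036 adjusted) and Slc32a1 by 0.95 (0.0070 adjusted), while Slc12a2 was higher by 0.51 (1.43-fold, adjusted p = 0.00018), beside 53.6% of all genes called and 30% called lower. In caudal cord Slc32a1 was lower late by 0.38 (adjusted p = 0.047) and the others did not pass, beside 58.2% of all genes called and 35.5% called lower. RT1-CE10 in LC arrays was 10.37 to 11.36 on day 1 outside the lesion, 7.22 to 8.14 on day 60 and 10.17 to 11.78 on day 90 over all segments, and its part in these differences was not tested. The lesion values of Slc12a5 and Slc32a1 rested on 1 array: without LC replicate 1 of day 3 they were −0.70 (adjusted p = 0.21) and −0.73 (adjusted p = 0.073). The rostral value of Slc32a1 without LC replicate 3 of day 3 was 0.31 (adjusted p = 0.084), and its caudal call was lost without any of 10 single arrays and in several other fits. The rostral call of Gad1 was lost in a single fit of all arrays (adjusted p = 0.18), and the lesion call of Slc12a5 with quantile normalisation (−0.84, adjusted p = 0.062).

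The comparison of NT3 with LC asks how the NT-3 tube altered these genes against an untreated gap. Of 36 comparisons by period, 8 passed the test, 7 higher and 1 lower in NT3. They fell in 3 places: Gad1, Slc32a1 and Slc12a5 were higher in rostral cord at days 1 and 3, the same 3 genes were higher at the lesion site at days 60 and 90, and Slc12a5 was higher in caudal cord at days 10 to 30. Slc12a2 was lower at the lesion site on day 3.

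At the late lesion site Gad1 gave 6.12, 6.35 and 6.80 in NT3 tissue on day 60 and 7.42, 7.87 and 7.54 on day 90, against 5.17, 6.20 and 4.63 and 4.20, 3.71 and 5.21 in LC tissue. On day 60 the groups overlapped, and on day 90 all NT3 arrays were above all LC arrays. Over both days NT3 was higher by 2.16 (1.43 to 2.89, adjusted p = 3.0e-05), beside 37.7% of all tested genes called and 14.9% called higher. By single days, a division chosen after the values by day were seen, the difference was 1.09 on day 60 (0.05 to 2.12, adjusted p = 0.11) and 3.23 on day 90 (2.20 to 4.27, adjusted p = 5.4e-05), beside 25.7% and 28.8% of all genes. In a single fit of all arrays and with array weights the day 60 difference passed as well (adjusted p = 0.0032 and 0.038). Even on day 90 the NT3 arrays stayed below the lowest uninjured array, at 11.06.

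Slc12a5 read 9.30, 9.33 and 9.19 in NT3 lesion tissue on day 90, against 6.30, 6.97 and 7.44 in LC tissue, so that the groups lay far apart. On day 60 its values were 7.85, 7.97 and 8.14 in NT3 tissue, against 7.32, 8.40 and 7.52 in LC tissue, and they overlapped. The difference was 1.30 over both days (0.65 to 1.96, 2.47-fold, adjusted p = 0.0020), 0.24 on day 60 (adjusted p = 0.72) and 2.37 on day 90 (1.44 to 3.3, adjusted p = 0.00034). KCC2 transcript was therefore higher in NT3 than in LC lesion tissue on day 90 and not detectably so on day 60.

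Slc32a1 read 6.21, 6.34 and 6.0 in NT3 lesion tissue on day 90, against 4.70, 4.90 and 4.64 in LC tissue. All of these values were below the 40th percentile of their arrays, though the groups did not overlap. The difference was 0.68 over days 60 and 90 (0.19 to 1.16, adjusted p = 0.026) and 1.44 on day 90 alone (0.75 to 2.13, adjusted p = 0.0021), with −0.09 on day 60. The result over both days was lost without NT3 replicate 2 of day 90 (0.64, adjusted p = 0.0528) or without LC replicate 3 of day 60 (0.57, adjusted p = 0.0826). Slc12a2 differed between NT3 and LC by 0.10 (−0.08 to 0.28, adjusted p = 0.41) over both days, and by 0.07 on day 90 (−0.19 to 0.33). Its arrays on day 90 read 12.40, 12.50 and 12.48 in NT3 tissue, against 12.48, 12.27 and 12.42 in LC tissue.

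Several other measures moved with the day 90 result. RT1-CE10 was 7.54 to 7.73 in NT3 lesion tissue, against 11.06 to 11.78 in LC tissue on that day. On day 60 it was 7.76 to 7.89 in NT3 and 7.73 to 8.14 in LC, so there the groups were alike in this gene. The 11 neuron genes, averaged per array relative to uninjured cord, stood at −1.92 to −1.23 in NT3 and −4.33 to −3.31 in LC on day 90, and 11 of 11 were higher in NT3 (median 2.36). Oligodendrocyte and myelin genes were higher in 7 of 8 (median 2.01), and the interneuron list mean was −1.22 to −1.07 in NT3, against −2.37 to −2.17 in LC. The 6 skeletal muscle genes averaged 2.60 to 2.88 in NT3, against −0.01 to 1.16 in LC, and 3 of 6 were higher. The part of any of these in the members' differences was not tested.

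On day 20 the lists were higher in NT3 as well. There 10 of 11 neuron genes (median 3.15) and 5 of 10 interneuron genes were higher in NT3 lesion tissue, the neuron list mean being −2.08 to −1.59 in NT3 and −4.78 to −4.45 in LC. Gad1 gave 6.54, 6.10 and 5.95 in NT3 tissue, against 5.52, 5.00 and 6.13 in LC tissue, a difference of 0.64 that did not pass (adjusted p = 0.35). Slc32a1 differed by 0.48 (adjusted p = 0.29) and Slc12a5 by 0.44 (adjusted p = 0.49). Slc12a2 was the one member called, with 12.16, 12.18 and 12.08 in NT3 tissue, against 11.73, 11.63 and 11.99 in LC tissue (0.36, adjusted p = 0.027, 33.5% of all genes called), and with the compared groups alone it missed the threshold (adjusted p = 0.0559). With array weights the other 3 passed on that day, Gad1 at 1.01, Slc32a1 at 1.03 and Slc12a5 at 0.77. RT1-CE10 was 7.15 to 7.56 in NT3 tissue and 8.44 to 11.26 in LC tissue, and muscle genes averaged 2.47 to 3.98 in NT3, against −0.35 to 0.83 in LC. Whether the neuron and interneuron lists changed more than the members on this day was not tested.

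**Figure D3:**
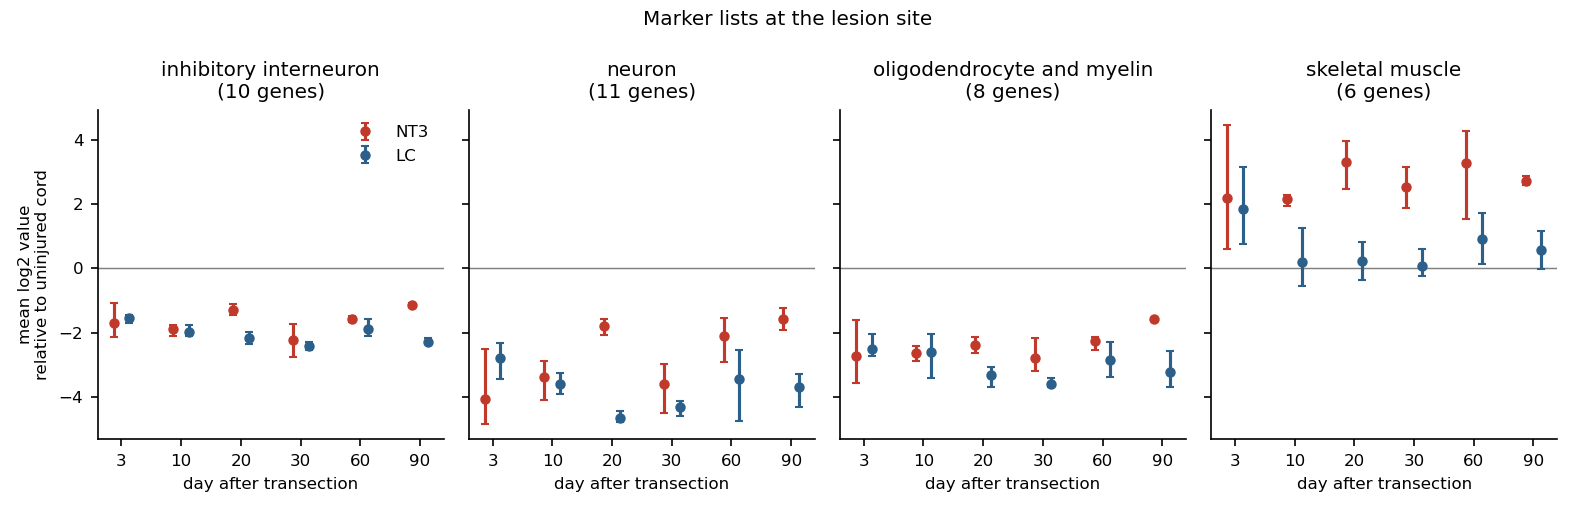
Mean log2 value of 4 marker lists relative to uninjured cord at the lesion site in NT3 and LC arrays, by day, with bars from the lowest to the highest array. On day 90 the neuron list stood at −1.92 to −1.23 in NT3 and −4.33 to −3.31 in LC, and the muscle list at 2.60 to 2.88 in NT3 and −0.01 to 1.16 in LC.

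Related pathway genes at the late lesion site were also higher in NT3 than in LC, where the median of all tested genes was −0.06. Of the 6 GABA-A subunits 5 were higher (list median 1.09), among them Gabrb1 at 1.30, Gabra2 at 1.27 and Gabrb2 at 1.26, while Gabrd, at 0.13, did not pass. Of 10 interneuron genes 7 were higher and 2 lower, with Pvalb at 2.19, Sst at 1.59 and Calb1 at 1.28, against Pnoc at −0.63 and Pax8 at −0.42. Glra2 was higher by 0.71 and Gphn by 0.19, Slc6a9 by 0.68 and Aldh5a1 by 0.63. None of the 3 other cation-chloride cotransporters passed the test, and of the 8 tested regulators Wnk2 was higher (0.72) and 2 were lower. Slc17a6 was higher by 1.97, so a marker of excitatory neurons was higher beside the inhibitory ones.

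At the lesion site on day 3 Slc12a2 read 11.82, 11.06 and 11.10 in NT3 tissue, against 11.93, 11.83 and 11.73 in LC tissue. The difference was −0.50 (−0.76 to −0.25, adjusted p = 0.0049, 17.8% of all genes called and 9.82% called lower), with 1 NT3 array close to the LC arrays. That array, replicate 1, also stood apart in Slc12a5 (9.88, against 7.27 and 7.13 in the other NT3 arrays) and in Gad1 (9.27, against 7.91 and 7.74). Without it Slc12a5 was lower in NT3 than in LC by 1.10 (adjusted p = 0.030), against −0.21 and no call with it. Without NT3 replicate 2 or 3 of that day the Slc12a2 difference was −0.37 (adjusted p = 0.068) or −0.39 (adjusted p = 0.0548), and in a fit of the compared groups alone its adjusted p was 0.205. RT1-CE10 on day 3 was 7.52 to 8.12 in NT3 lesion tissue, against 7.90 to 10.06 in LC lesion tissue, and its part was not tested. At days 10 to 30 no member passed at the lesion site, where 36.6% of all genes were called, though Slc12a2 did without the 3 arrays that stood apart (0.19, adjusted p = 0.0030) and in a single fit of all arrays (0.16, adjusted p = 0.019).

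In rostral cord Gad1 gave 10.90, 10.82 and 10.83 in NT3 on day 1, against 10.43, 10.01 and 9.99 in LC. Slc32a1 gave 9.56, 9.16 and 9.21 in NT3, against 8.76, 8.42 and 8.86 in LC, and Slc12a5 gave 11.76, 11.68 and 11.71 in NT3, against 11.42, 11.17 and 11.41 in LC. For all 3 genes the NT3 arrays lay above the LC arrays on that day, and the share of all tested genes without overlap was not counted. Over days 1 and 3 NT3 was higher by 0.51 for Gad1 (0.33 to 0.68, adjusted p = 2.1e-05), 0.46 for Slc12a5 (0.25 to 0.67, adjusted p = 0.00089) and 0.53 for Slc32a1 (0.22 to 0.85, adjusted p = 0.0077), and by 0.14 for Slc12a2, which did not pass, beside 33.4% of all genes called and 14.2% called higher. On day 1 alone Gad1 was higher by 0.71 (0.46 to 0.95, adjusted p = 2.8e-05), with 30.7% of all genes called. In a single fit of all arrays the day 1 calls of Gad1 (adjusted p = 0.0644), Slc32a1 (0.0653 adjusted) and Slc12a5 (0.300 adjusted) were lost. That of Slc12a5 was also lost with no filter, with quantile normalisation and with the beta-actin covariate, and that of Slc32a1 with the last of these. Slc32a1 without LC replicate 3 of day 3 was 0.39 (adjusted p = 0.0546), and in a single fit of all arrays Gad1 and Slc12a5 missed the threshold (adjusted p = 0.0557 and 0.0578).

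In those first days 4 of 6 GABA-A subunits were higher in rostral NT3 cord than in LC (list median 0.55, all tested genes −0.04), as were 3 of 4 glycine receptor genes (0.31) and 4 of 5 chloride channel and bicarbonate genes (0.45), including Slc4a10, a sodium-coupled bicarbonate transporter of neurons, at 0.61. Slc12a7 and Slc12a4 were lower, by 0.52 and 0.34. Of the neuron genes 10 of 11 were higher (0.40), their list mean being −0.44 to −0.27 in NT3 and −1.02 to −0.79 in LC on day 1, and 4 of 7 microglia genes were lower (−0.41). RT1-CE10 on day 1 was 6.64 to 6.85 in NT3, against 10.39 to 11.36 in LC, and its part in these differences was not tested. On day 3 RT1-CE10 was 6.94 to 7.20 in NT3 and 7.27 to 9.19 in LC, and Slc12a5 was higher in NT3 by 0.54 (adjusted p = 0.022, 7.09% of all genes called), a call lost in a single fit of all arrays (adjusted p = 0.247) and with the compared groups alone (0.419 adjusted).

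Later the rostral direction was not kept. At days 10 to 30 the differences between NT3 and LC were −0.13 for Gad1, −0.21 for Slc32a1 and −0.15 for Slc12a5, and at days 60 and 90 they were −0.24, −0.32 and −0.18, and no member passed in either period, when 0.407% and 0.0581% of all genes did. On day 60 Gad1 read 9.85, 10.02 and 9.91 in NT3, against 10.34, 10.41 and 10.46 in LC, with no overlap and a difference of −0.48 (adjusted p = 0.055, 0.357% of all genes called), which passed with the compared groups alone (adjusted p = 0.027). A test of whether the NT3 difference varied with day gave an adjusted p of 3.7e-05 for rostral Gad1, 0.0015 for Slc12a5 and 0.0089 for Slc32a1, beside 28.2% of all genes called. At the lesion site all 4 members passed this test (50.6% of all genes), and in caudal cord none did (7.18%). In a single fit of all arrays the rostral test was lost for Gad1 (adjusted p = 0.195) and Slc12a5 (adjusted p = 0.160), and in a fit of the compared groups alone the lesion test was lost for Slc32a1 (adjusted p = 0.0555). Over all days together no member passed in rostral cord (2.77% of all genes), and Gad1 differed by 0.02.

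In caudal cord Slc12a5 was higher in NT3 than in LC at days 10 to 30 by 0.36 (0.17 to 0.54, adjusted p = 0.030), beside 2.47% of all genes called and 1.27% called higher. At days 1 and 3 and at days 60 and 90 no member passed there, when 6.58% and 0.141% of all genes did. On day 1 alone Slc12a2 was called higher in NT3 by 0.28, beside 8% of all genes called. That call was lost in a single fit of all arrays (adjusted p = 0.0674), with the compared groups alone (0.171 adjusted) and with quantile normalisation (0.0636 adjusted). The period result of Slc12a5 came with day 10, when it read 11.78, 11.65 and 11.44 in NT3, against 10.86, 11.21 and 10.48 in LC, a difference of 0.77 (0.46 to 1.09, adjusted p = 0.010). Slc32a1 on that day read 9.44, 8.88 and 9.03 in NT3, against 8.42, 8.33 and 7.73 in LC, a difference of 0.96 (0.49 to 1.43, adjusted p = 0.033). Neither gene's groups overlapped, and 0.806% of all genes were called on that day. Both day 10 calls were lost in 4 other fits, with adjusted p for Slc12a5 and Slc32a1 of 0.123 and 0.0566 in a single fit of all arrays, 0.278 and 0.223 with the compared groups alone, 0.0675 and 0.123 with array weights and 0.127 and 0.287 with the beta-actin difference as a covariate. RT1-CE10 was alike, 6.91 to 7.29 in NT3 and 7.13 to 7.41 in LC, and over days 10 to 30 none of 6 GABA-A subunits, none of 10 interneuron genes and 2 of 11 neuron genes passed the test. The period result for Slc12a5 was lost without any of 7 single arrays, for example without LC replicate 2 of day 20 (0.28, adjusted p = 0.17) or LC replicate 3 of day 10 (0.29, adjusted p = 0.149), and in a single fit of all arrays (adjusted p = 0.21). The period call was also lost with the compared groups alone (adjusted p = 0.148) and with the beta-actin covariate (0.28, adjusted p = 0.110).

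Over all days together, caudal Slc12a5 was higher in NT3 than in LC by 0.26 (adjusted p = 0.0051) and Slc12a2 by 0.13 (adjusted p = 0.0096), beside 9.76% of all genes called and 5.91% called higher. Over the same days lesion Gad1 was higher by 0.90 (adjusted p = 0.00076) and Slc12a5 by 0.49 (adjusted p = 0.034), beside 41.9% called and 19% called higher. With only the days whose NT3 and LC arrays had similar RT1-CE10 values, these differences were 0.27 (adjusted p = 0.0545) for caudal Slc12a5, 0.11 (0.15 adjusted) for caudal Slc12a2, 0.46 (0.25 adjusted) for lesion Gad1 and 0.11 (0.78 adjusted) for lesion Slc12a5. Those days leave out day 90, on which the lesion differences were widest. In a single fit of all arrays caudal Slc12a5 missed the threshold (adjusted p = 0.0996). The call of lesion Slc12a5 over all days was also lost without any of 8 single arrays. The NT3 difference was not detectably unlike between rostral and caudal cord for any of the 4 genes (0.0747% of all genes called), and for Slc12a5 the interval of that contrast ran from −0.53 to 0.05.

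**Figure D4:**
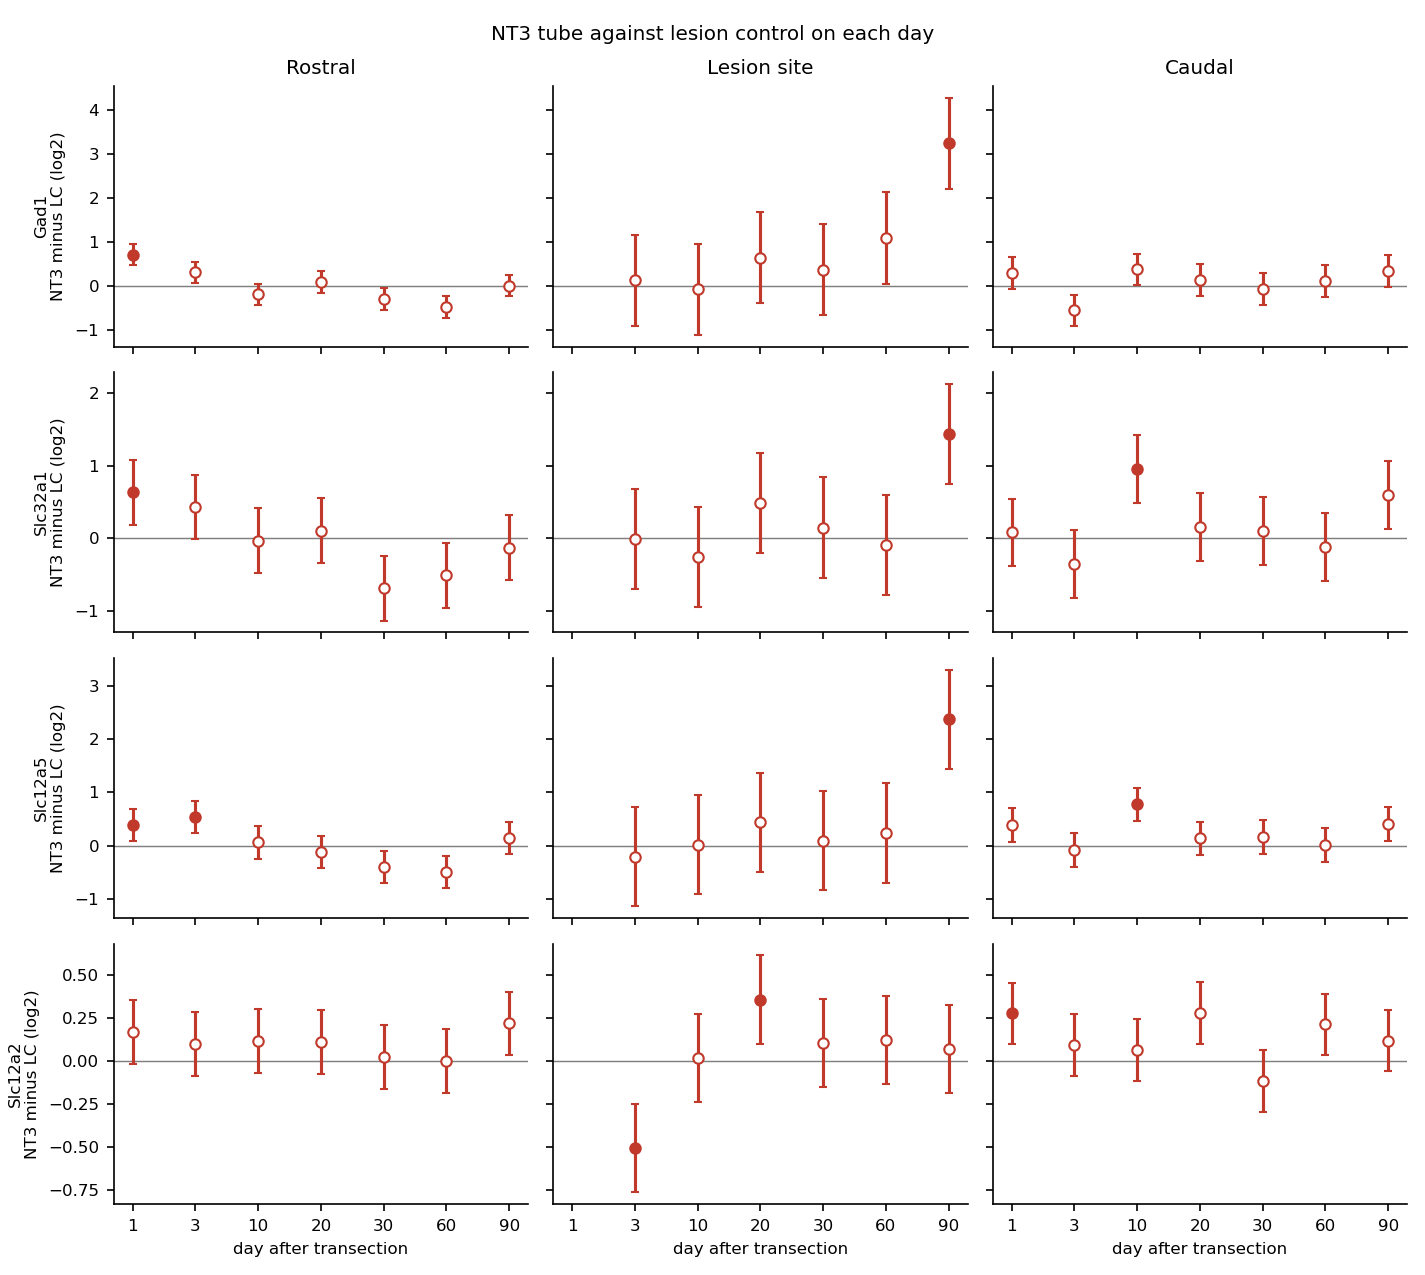
NT3 minus LC on each day, on the log2 scale, with 95% intervals, for 4 genes in 3 segments, with filled points where the adjusted p was under 0.05 and a vertical scale of its own for each gene. The 12 filled points include day 1 in rostral cord for Gad1 (0.71), day 90 at the lesion site for Gad1 (3.23) and Slc12a5 (2.37) and day 10 in caudal cord for Slc32a1 (0.96).

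The empty tube separates the tube from its NT-3 load. In rostral cord over all days NT3 was higher than ET for all 4 genes, Gad1 by 0.38 (adjusted p = 1.4e-07), Slc32a1 by 0.39 (adjusted p = 0.00049), Slc12a5 by 0.30 (adjusted p = 7.5e-05) and Slc12a2 by 0.10 (adjusted p = 0.033), beside 30.2% of all genes called and 17.4% called higher. The call of Slc12a2 was lost without any of 12 single arrays, with quantile normalisation, with scaling to the 75th percentile, with array weights and over the days with similar RT1-CE10. ET was lower than LC there for Gad1 by 0.36 (adjusted p = 1.8e-07), Slc32a1 by 0.42 (adjusted p = 0.00033) and Slc12a5 by 0.29 (adjusted p = 0.00022), with Slc12a2 at 0.01, beside 22.8% called and 14.9% called lower. The single groups overlapped over all days: Gad1 ran from 9.78 to 10.90 in NT3 (median 10.14), from 9.41 to 10.40 in ET (9.83) and from 9.65 to 10.49 in LC (10.22). On day 60 they did not, with Gad1 at 9.85, 10.02 and 9.91 in NT3, 9.41, 9.43 and 9.42 in ET and 10.34, 10.41 and 10.46 in LC. Slc32a1 read 8.23, 8.69 and 8.42 in NT3, 7.84, 7.89 and 7.79 in ET and 8.84, 8.91 and 9.12 in LC on that day, and Slc12a5 read 10.94, 11.22 and 11.11 in NT3, 10.69, 10.65 and 10.56 in ET and 11.42, 11.67 and 11.64 in LC. For these 3 genes ET was lowest on day 60 and NT3 lay between ET and LC, with no overlap. That day was named after the values by day had been seen, and ET was not tested by single days. How many of all tested genes showed this order was not counted.

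Other lists moved with the ET values. In rostral cord 9 of 11 neuron genes were lower in ET than in LC (median −0.25), 6 of 6 fibroblast genes were higher (0.77) and 4 of 6 muscle genes were higher (0.86), where all tested genes had a median of −0.03. Between NT3 and ET 11 of 11 neuron genes were higher (0.30), 6 of 6 fibroblast genes lower (−0.61) and 4 of 6 muscle genes lower (−1.02), with 0.01 for all genes. RT1-CE10 on day 60 was 7.28 to 7.53 in NT3, 9.85 to 10.82 in ET and 7.22 to 7.31 in LC. It also stood apart on day 1, at 6.64 to 6.85 in NT3, 10.70 to 11.00 in ET and 10.39 to 11.36 in LC. On day 90 it was 7.05 to 7.37 in NT3, 7.45 to 7.76 in ET and 10.40 to 11.31 in LC. Their part in the ET differences was not tested.

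Lesion tissue of ET rats was sampled on day 3 alone. Gad1 read 9.27, 7.91 and 7.74 in NT3 tissue and 9.13, 9.09 and 9.39 in ET tissue, against 8.41, 8.17 and 7.97 in LC tissue. NT3 differed from ET by −0.90 (−1.93 to 0.14, adjusted p = 0.27), and ET from LC by 1.02 (−0.01 to 2.06, adjusted p = 0.15) although every ET array was above every LC array. No member passed in either comparison, beside 7.23% and 23.2% of all genes. These counts depended on the fit: Gad1 passed between ET and LC with the compared groups alone (adjusted p = 0.0047) and in a single fit of all arrays (0.0058 adjusted), which also called it between NT3 and ET (0.032 adjusted). Without NT3 replicate 1, Slc12a5 (−1.54, adjusted p = 0.0058) and Slc12a2 (−0.52, adjusted p = 0.0013) were lower in NT3 than in ET. In caudal cord no member passed between NT3 and ET (8.38%), and Slc12a2 was higher in ET than in LC, by 0.13 (adjusted p = 0.023, 3.5% of all genes). With the compared groups alone that call was lost (adjusted p = 0.0533), and caudal Slc12a5 passed with quantile normalisation (0.18, adjusted p = 0.046), with array weights (0.16, adjusted p = 0.017) and over the days with similar RT1-CE10 (0.27, adjusted p = 0.023).

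The balance between the 2 chloride cotransporters was followed per array as the change of Slc12a5 from the uninjured mean minus that of Slc12a2, a description without a test, in which a negative value means that the transcript of the extruder KCC2 lost more than that of the importer NKCC1. Slc12a5 is neuronal while Slc12a2 is also made by glia, vessels and epithelia. In bulk tissue this measure cannot tell fewer neurons from a shift between the 2 transcripts within neurons. Uninjured arrays lay between −0.15 and 0.24. LC lesion tissue averaged −2.81 on day 3, −3.58 on day 10, −3.71 on day 20, −4.31 on day 30, −3.83 on day 60 and −4.77 on day 90, when its arrays ran from −5.47 to −4.27. NT3 lesion tissue averaged −2.52, −3.58, −3.63, −4.33, −3.72 and −2.47 on those days, and on day 90 its arrays ran from −2.57 to −2.39. Treatments thus coincided from day 10 to day 60 and lay apart on day 90, while ET tissue on day 3 averaged −2.14.

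Away from the lesion the balance moved much less. In rostral cord LC averaged −0.99, −0.80 and −0.55 in the 3 periods, NT3 −0.67, −1.04 and −0.84 and ET −0.92, −1.25 and −0.95. On day 60 rostral NT3 averaged −0.92 and ET −1.33 (−1.45 to −1.19), against −0.43 in LC (−0.56 to −0.36). In caudal cord NT3 averaged −0.67, −0.60 and −0.57, against −0.64, −0.88 and −0.62 in LC, and the widest gap was on day 10, with −0.61 in NT3 (−0.69 to −0.50) and −1.32 in LC (−1.67 to −1.10). Every segment and treatment kept a negative mean in all periods. By single day, the caudal NT3 arrays of day 1 ran from −0.38 to −0.13 and overlapped the uninjured range of −0.15 to 0.24. The arrays of all other injured groups lay below that range. Whether any group differed from uninjured cord in this measure was not tested.

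**Figure D5:**
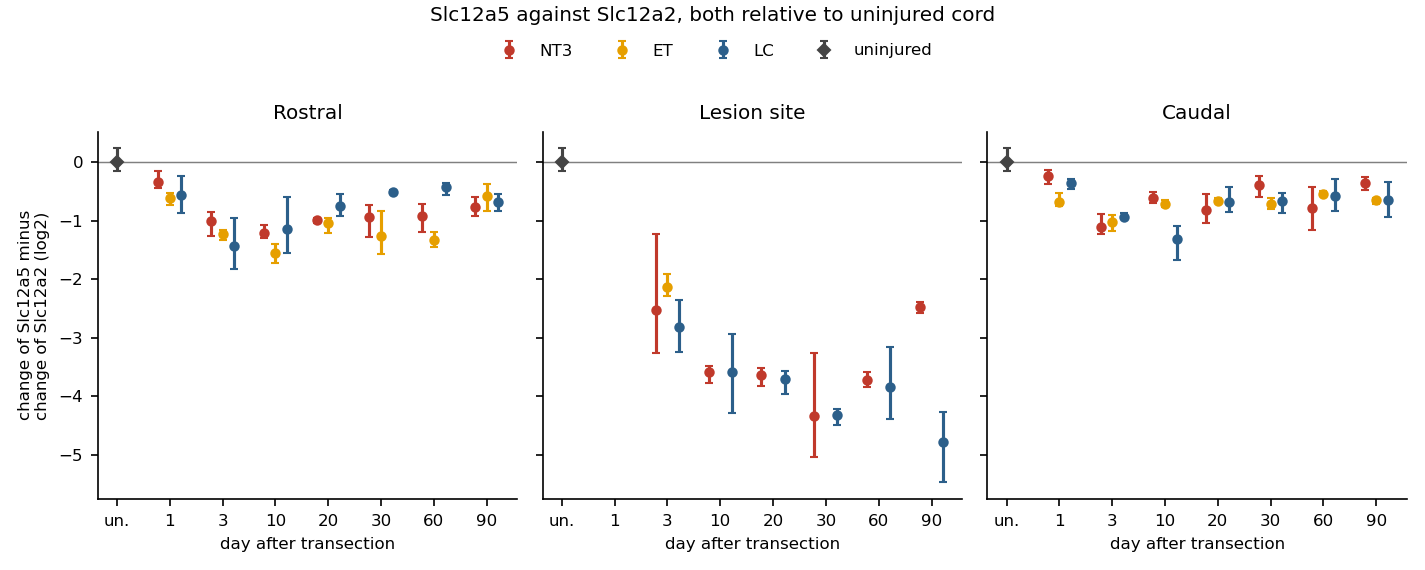
Change of Slc12a5 from the uninjured mean minus change of Slc12a2, on the log2 scale, by day and segment, with group means and bars from the lowest to the highest array. LC lesion tissue reached −4.77 on day 90, where NT3 lesion tissue stood at −2.47, and rostral and caudal groups stayed far closer to 0.

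The members' levels over the 56 groups followed each other closely, given here as a description over groups that share the segment contrast. Pearson's r of group means was 0.99 between Slc32a1 and Slc12a5, 0.96 between Gad1 and Slc12a5 and 0.95 between Gad1 and Slc32a1, and Slc12a2 had 0.81, 0.80 and 0.69 with Slc12a5, Slc32a1 and Gad1. Within the 21 rostral groups r was 0.90 between Slc32a1 and Slc12a5. Within segments r of Slc12a2 with Gad1, Slc32a1 and Slc12a5 was 0.20, −0.14 and −0.11 over the rostral groups, −0.54, −0.28 and −0.10 over the 13 lesion groups and 0.43, 0.15 and 0.34 over the 21 caudal groups. By the same measure over all 56 groups, the tested genes most like Slc32a1 were Sv2a, Shank1 and Sncb (0.99 each), those most like Slc12a5 were Kcnc1, Lamp5 and Hpcal4 (0.99 each), those most like Gad1 were Olig1, Mobp and Bcas1 (0.98 each), and those most like Slc12a2 were Fam171b (0.95), Dync1li2 and Prkar1a (0.94 each). Olig1, Mobp and Bcas1 are known as oligodendrocyte genes, and Sv2a and Sncb as genes of synaptic terminals.

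Gad2 and Slc6a5, which were not tested, varied within a narrow range. In late lesion tissue Gad2 read 4.52 to 4.88 (median 4.70) in NT3 and 4.29 to 4.74 (median 4.65) in LC, against 5.74, 5.33 and 5.06 in uninjured cord. Slc6a5 read 4.58 to 4.96 (median 4.76) in NT3 and 4.54 to 5.09 (median 4.92) in LC, against 5.04, 4.81 and 4.92 in uninjured cord. With no filter on low values, a setting used after their levels had been seen for this purpose, Gad2 was lower in LC than in uninjured cord in 3 of 9 comparisons, at the lesion site at days 10 to 30 (−0.50, adjusted p = 0.0006) and at days 60 and 90 (−0.78) and in caudal cord at days 10 to 30 (−0.34, adjusted p = 0.033). Slc6a5 passed in none of these 9. In the same setting each of the 2 genes passed in 1 of 3 comparisons of late with first LC days. Each also passed in 1 of 3 comparisons of the lesion site with neighbouring LC cord. Neither gene passed in any comparison between NT3, ET and LC, which at this signal cannot show that they were unaffected.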

How the data were processed

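Total RNA of each segment was labelled and hybridised to Affymetrix rat arrays, and the deposited values are log2 intensities that the authors made with RMA, per the submitters' processing notes, which also name GCOS and Affymetrix Expression Console without versions. Which arrays were normalised together, and how background was treated before deposit, is not given in the sources used here. RMA compresses differences near background, so folds of dim probe sets are understated.

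Of 31099 probe sets, 20832 had 1 gene symbol, 436 several and 9831 none, and those with 1 symbol named 14218 genes, each read from its brightest probe set by mean. A gene was tested if it exceeded the array's 40th percentile on at least 3 arrays. Group means were compared in linear models (limma 3.58.1, R 4.3.3), separately per segment with uninjured arrays included, and in a joint model of all arrays where segments were compared. Contrasts averaged the days of a period with equal weight, tests were two-sided, and a call was an adjusted p under 0.05 after Benjamini-Hochberg adjustment over all tested genes. Precision is limited by the few arrays per group. In the 80 member comparisons of NT3 with LC on single days, all NT3 arrays lay above LC in 19 and below in 8. Only 12 of the 80 were called. The share of all tested genes without overlap was not counted in any comparison. The fits were tested on simulated data. Promoter windows and gene positions came from RefSeq tables of GRCr8, and motifs were found by exact match on both strands. Members were described in every comparison, list genes were named as the up to 3 called ones with the largest difference, and other list genes, such as Gabrg1, Gabrd, Oxsr1 and Slc17a6, were picked after their values were seen. The genes most like a member were the 3 with the highest correlation over group means. The members and lists were chosen with earlier results of these data known. The single days, the split of days 60 and 90 and the count of Gad2 and Slc6a5 without a filter were added after values had been seen. Alternatives in normalisation, filter, probe set choice, array weights, blocks and left-out arrays are given in the closing section.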

Additional observations from a re-analysis of the deposited data

Results flagged for a closer look

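The difference between NT3 and LC varied with the day after injury for several members, by limma's test across the days on which both groups were sampled. In rostral cord the adjusted p was 3.7e-05 for Gad1, 0.0015 for Slc12a5 and 0.0089 for Slc32a1, each with NT3 above LC on day 1 and below it on day 60. At the lesion site it was 0.0035 for Gad1, 0.0057 for Slc12a2, 0.013 for Slc12a5 and 0.035 for Slc32a1, beside 50.6% of all tested genes called. There Gad1, Slc12a5 and Slc32a1 had their widest differences on day 90, while Slc12a2 was lower in NT3 on day 3 and higher on day 20. In a single fit of all arrays rostral Gad1 (0.195) and Slc12a5 (0.160) missed the threshold, as did lesion Slc32a1 with the compared groups alone (0.0555). In caudal cord no member passed this test, with adjusted p from 0.060 to 0.15 and 7.18% of all genes called.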

How the results depend on the processing

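Results were recomputed with other normalisations, filters, probe set choices, fits, covariates and left-out arrays. Outside single days and the fits without 1 array in turn, 1849 of 1924 recomputed member results kept their side of the threshold, 46 gained a call and 29 lost one. No result that was called in either fit changed direction. Changes of sign among uncalled results were not counted, and the tests by day have no direction. Of the calls among the 4 tested members, array weights gave 19 against 8 for NT3 and LC by period, 11 against 7 by day, 28 against 12 on single days and 4 against 0 between rostral and caudal LC, and turned Gad1 at the lesion site on day 10 to 0.99 from −0.08, in a fit that warned of incomplete convergence. The share of all tested genes called also varied between the alternatives. For NT3 and LC it ran from 0% to 22.4% in rostral cord at days 10 to 30 (main fit 0.407%). In caudal cord it ran from 0.0997% to 22.6% at days 60 and 90 (0.141%) and from 5.82% to 66.8% by day (7.18%). These shares are not split by setting here, so the added member calls are not read as particular to the members. One fit of all arrays gave 6 calls on single days against 12, and days alike in RT1-CE10 gave 0 calls over all days against 4. One fit of all arrays also ended the rostral calls of days 1 and 3 for Gad1 (adjusted p = 0.0557) and Slc12a5 (0.0578) and the caudal call of Slc12a5 at days 10 to 30 (0.21), the rostral tests by day for Gad1 (0.195) and Slc12a5 (0.160) and the rostral call of Gad1 late against first days (0.18), and in fits of the compared groups alone the day 3 lesion call of Slc12a2 was lost (0.205). With the mean of both Gad1 probe sets, 4 of its 9 LC calls against uninjured cord were lost, with differences of −0.20 in late rostral cord and −0.34, −0.30 and −0.31 in caudal cord. Another scaling moved the share of higher genes among all called genes, for NT3 and ET at the lesion site to 23.7% (75th percentile) or 45.4% (quantile) against 73.1%, for ET and LC there to 67.5% or 55.0% against 31.9%, for rostral ET and LC to 45.6% or 45.3% against 34.7%, and for rostral NT3 and ET to 44.9% by the 75th percentile against 57.7%. The cause of these changes was not tested. Leaving out each array in turn gave 36 calls throughout for LC against uninjured cord, 12 for lesion against neighbouring segments and 0 between rostral and caudal LC. It gave 6 to 8 for late against first days, 7 to 9 for NT3 and LC by period, 3 to 5 over all days and 5 to 10 by day. It also gave 3 to 6 for NT3 and ET and 3 to 5 for ET and LC. For the rostral minus caudal contrast only the 42 LC arrays were left out in turn, with 0 calls, and its NT3 arrays were not. Late against first days in caudal cord, Slc32a1 lost its call without any of 10 single arrays, as did rostral Slc12a2 between NT3 and ET without any of 12 and lesion Slc12a5 over all days without any of 8. The labels do not tie same-numbered arrays to an animal or batch, and the correlations of their deviations had means between −0.09 and 0.09, with 32 of 62 rostral and caudal pairs above 0.1, so the numbers were not taken as pairs. The replicate block gave 9 calls by period against 8 and 13 on single days against 12, adding lesion Slc12a2 at days 10 to 30 (0.19, adjusted p = 0.0445). Signal limits Slc32a1 at the lesion site, Gad1 at the late lesion site and Gad2 and Slc6a5 everywhere.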
